A study of Mus musculus with 6 samples.

Results

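The genes described here are 9 genes of peptide, lipid and nucleoside signalling to the vessel wall, measured in mouse aortic smooth muscle cells (MASMCs). They are the endothelin ligand Edn1, its activating enzyme Ece1, the endothelin receptors Ednra and Ednrb, the vasopressin receptor Avpr1a, the sphingosine 1-phosphate (S1P) receptors S1pr1, S1pr2 and S1pr3, and the adenosine receptor Adora2b. They were found by gene symbol in the count table and are 9 of its 41721 rows, of which 24025 had at least 1 count. No adrenergic receptor is among the 9, and the adrenergic genes are described from a list of that pathway.

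RNA was sequenced from 6 libraries of MASMCs cultured from the abdominal aorta and treated with angiotensin II (Ang II), 3 labelled Pdk4fl/fl and 3 labelled Pdk4SMKO, and the comparison asks what the loss of pyruvate dehydrogenase kinase 4 (Pdk4) changes in Ang II-treated smooth muscle. Pdk4fl/fl mice carry loxP sites around a group of Pdk4 exons, and Pdk4SMKO mice carry these sites together with Myh11-CreERT2, a tamoxifen-inducible Cre driven by a smooth muscle myosin promoter. Both genotypes, which are on a C57BL/6J background, received tamoxifen as young adults, and both groups of cells received Ang II, so neither a Cre-only nor an untreated group was compared here. The labels do not say whether replicates came from separate animals or cultures, so the p-values measure only the spread between these libraries.

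Endothelin is released as an inactive precursor, which endothelin-converting enzyme cleaves to a potent vasoconstrictor peptide. In smooth muscle, the endothelin A receptor and the vasopressin V1a receptor couple mainly to Gq, which raises intracellular calcium. S1P is a lipid carried in blood, whose receptors differ in the G proteins they use: the S1pr1 receptor uses Gi, while the S1pr2 and S1pr3 receptors also reach RhoA and Gq. The adenosine A2B receptor raises cAMP, which relaxes smooth muscle.

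The upstream sequence of 3 of the genes is shown because they stand for the 3 patterns seen below, a ligand that rose from a moderate level (Edn1), a receptor with no count in the Pdk4fl/fl libraries (Avpr1a) and the most abundant S1P receptor (S1pr2). Each is the 250 bases before the annotated RefSeq start on build GRCm38.p6, at chr13:42301226-42301475 on the plus strand for Edn1, chr10:122448249-122448498 on the plus strand for Avpr1a and chr9:20976794-20977043 on the minus strand for S1pr2. Capitals mark a match to the TATA box letters (TATAAA) in Avpr1a, which begins 137 bases before the start. In S1pr2 they mark a match to the cAMP response element (TGACGTCA), which begins 181 bases before it.
Edn1: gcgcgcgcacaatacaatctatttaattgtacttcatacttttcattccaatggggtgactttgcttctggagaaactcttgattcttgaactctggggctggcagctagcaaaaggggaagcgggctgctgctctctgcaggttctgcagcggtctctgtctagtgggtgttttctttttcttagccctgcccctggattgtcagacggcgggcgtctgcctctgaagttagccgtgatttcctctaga
Avpr1a: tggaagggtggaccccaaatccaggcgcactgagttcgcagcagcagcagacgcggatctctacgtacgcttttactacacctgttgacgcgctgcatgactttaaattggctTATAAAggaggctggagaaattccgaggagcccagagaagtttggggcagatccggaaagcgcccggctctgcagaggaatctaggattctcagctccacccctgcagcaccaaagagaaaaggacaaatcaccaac
S1pr2: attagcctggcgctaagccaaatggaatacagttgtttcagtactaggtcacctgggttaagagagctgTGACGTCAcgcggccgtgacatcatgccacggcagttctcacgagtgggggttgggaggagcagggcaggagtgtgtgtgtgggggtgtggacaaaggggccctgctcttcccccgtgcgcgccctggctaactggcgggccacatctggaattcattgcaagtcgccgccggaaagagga

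RefSeq windows of this length were found for 8 of the 9 genes, 11 windows in all, and S1pr1 had no entry. Both strands were searched. TATAAA was in 12.4% of all 32851 windows and in 1 of the 11, and TGACGTCA was in 1.55% of all windows and in 1 of the 11. The hypoxia response core ACGTG was in 16.6% of all windows and in 1 of the 11, a window of Ece1. The AP-1 motif TGANTCA (6.75% of all windows) and the CArG box of serum response factor (1.47%) were in none of the 11. These matches describe letters in the sequence and not bound sites.

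The libraries held 16526044 to 22481670 counts, and the genotypes stood far apart. The correlation between libraries of log2 CPM, a count scaled to the size of its library, was at least 0.985 within a genotype and at most 0.781 between them, and 59.3% of the 14085 genes tested passed the call used throughout, an adjusted p under 0.05 with a 2-fold difference (26.5% lower and 32.8% higher in Pdk4SMKO). Against that background a call for a single gene is common. Pdk4 itself had 570, 639 and 421 counts in the Pdk4fl/fl libraries and 110, 182 and 141 in the Pdk4SMKO libraries, a log2 fold change of -2.34 ± 0.22 (SE, adjusted p = 4.49e-06), counted over the whole gene with its unflanked exons. Xist, the transcript of the inactive X chromosome, had 3, 4 and 5 counts in Pdk4fl/fl and 610, 347 and 321 in Pdk4SMKO, although the mice of the study were described as male and the Myh11-CreERT2 transgene lies on the Y chromosome. This difference covered every library of both genotypes, so no result could be given without it, and genotype cannot be told apart from it.

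Cell type markers also differed between the genotypes. The 8 smooth muscle markers summed to 785 to 810.1 CPM in Pdk4fl/fl and 722 to 952 CPM in Pdk4SMKO. Of these, Acta2, Lmod1, Myh11 and Des were called higher and Smtn, Tagln and Cnn1 lower, and Myocd was not called. Myh11, whose promoter drove the Cre, was low in all libraries, with 8 to 10 counts in Pdk4fl/fl and 44 to 62 in Pdk4SMKO. The sum over 10 endothelial markers was 17.4 to 26.3 CPM in Pdk4fl/fl and 2.93 to 5.65 CPM in Pdk4SMKO, with Cldn5 at 0 and Cdh5 at 1 count at most in every library. In contrast, the sums were higher in Pdk4SMKO for 8 fibroblast markers (638 to 861 CPM against 5639 to 7325 CPM), 8 mesothelial markers (74.2 to 99.9 CPM against 722 to 1322 CPM), 8 macrophage markers (22.7 to 40.1 CPM against 62.7 to 64.0 CPM), 7 pericyte markers (27.9 to 48.5 CPM against 54.3 to 82.6 CPM) and 7 glial and melanocyte markers (2.30 to 2.72 CPM against 11.4 to 15.6 CPM). Members of 3 of these lists went against their sum. Cd68 was called lower among the macrophage markers (31.2 against 4.29 CPM), of which Cd14 alone gave 45.6 CPM in Pdk4SMKO, and Dpt (fibroblast) and Abcc9 (pericyte) were also called lower. In bulk RNA, a change in the number of cells of a type and a change in RNA per cell cannot be told apart. The part of these markers in the results below was not tested.

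**Figure D1:**
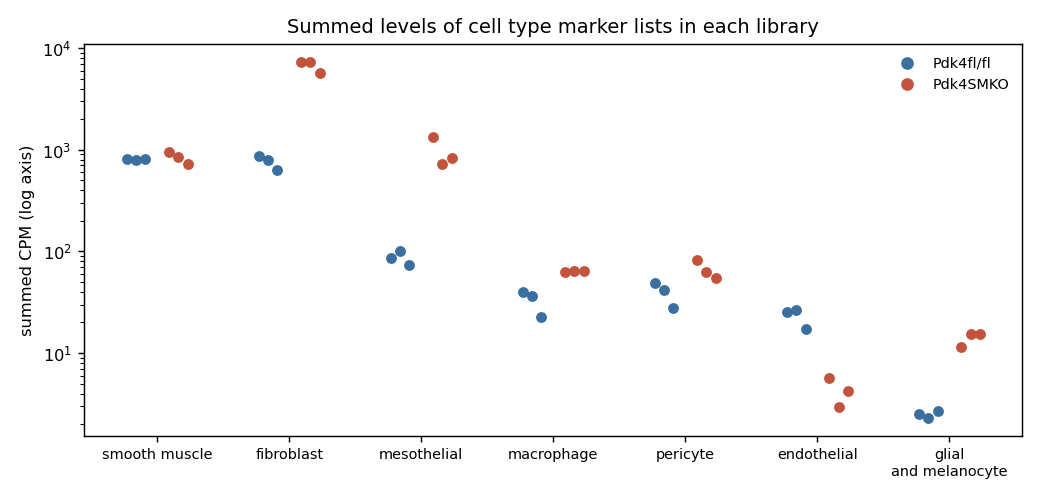
Summed CPM (log axis) of each cell type marker list in each of the 3 Pdk4fl/fl and 3 Pdk4SMKO libraries, with 1 point per library. The endothelial sum is lower in all Pdk4SMKO libraries (2.93 to 5.65 CPM against 17.4 to 26.3 CPM), the smooth muscle sums of the genotypes overlap, and the other 5 lists are higher in all Pdk4SMKO libraries.

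Of the 9 genes, 8 had every Pdk4SMKO library above every Pdk4fl/fl library, where 31.7% of all genes with a count did. Among tested genes alone that share was 43.5%. For Ednra, Ednrb and Avpr1a the separation rests on counts of 0 in Pdk4fl/fl. The fit tested 7 of them and called 6 higher (Edn1, Ece1, Avpr1a, S1pr1, S1pr2 and Adora2b) and 0 lower, where 32.8% of all tested genes were called higher. Ednra and Ednrb were too low to be tested, and S1pr3 was tested and not called. Avpr1a passed the filter on low counts only through its Pdk4SMKO libraries. The median log2 fold change of the 7 was 2.27, and that of all tested genes was 0.12.

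**Figure D2:**
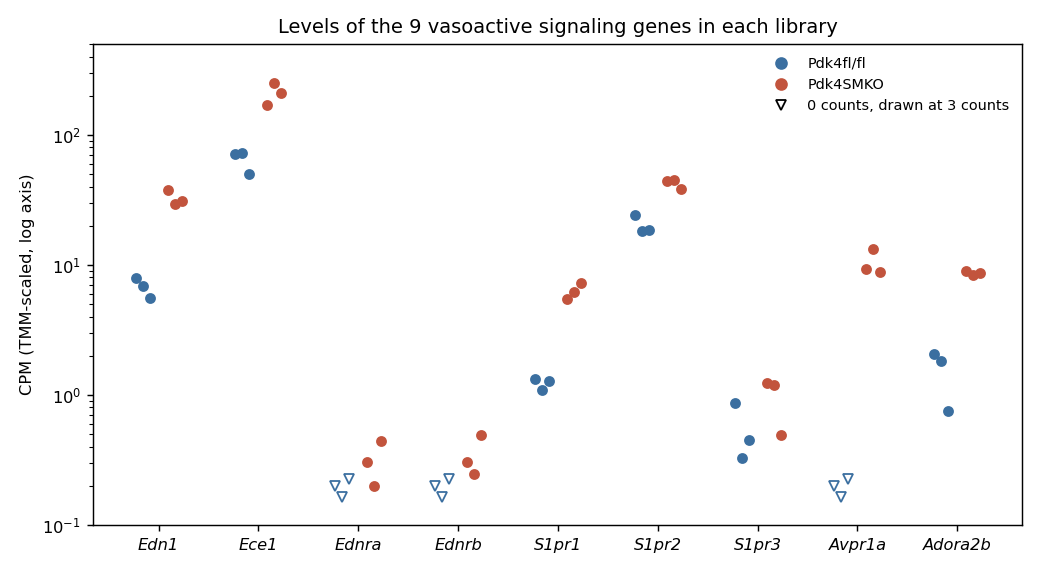
CPM (log axis) of each of the 9 genes in every library, with 1 point per library. For Edn1 the Pdk4SMKO libraries lie at 29.4 to 38.0 CPM and the Pdk4fl/fl libraries at 5.52 to 7.93 CPM; the genotypes overlap in S1pr3 alone, and Ednra, Ednrb and Avpr1a had no count in the Pdk4fl/fl libraries.

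Both the endothelin ligand and its converting enzyme were more abundant in Pdk4SMKO cells. Edn1, which encodes preproendothelin-1 (MGP_C57BL6NJ_G0020877, chromosome 13, 42119220 to 42125921, plus strand in the coordinates of the deposited table), had 119, 126 and 73 counts in the Pdk4fl/fl libraries and 866, 592 and 633 in the Pdk4SMKO libraries. Its level was 7.93, 6.91 and 5.52 CPM against 38.0, 29.4 and 31.0 CPM, so the lowest Pdk4SMKO library lay well above the highest Pdk4fl/fl library. The means were 6.79 ± 1.21 and 32.8 ± 4.54 CPM (SD, n = 3 each), a ratio of 4.83. The log2 fold change was 2.27 ± 0.19 (SE, adjusted p = 1.62e-06).

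Ece1, the membrane metalloprotease that cleaves the endothelin precursor (MGP_C57BL6NJ_G0029412, chromosome 4, 145538939 to 145654432, plus strand), was the most abundant of the 9 genes per kilobase in both genotypes. It had 1070, 1313 and 659 counts in Pdk4fl/fl and 3884, 5012 and 4310 in Pdk4SMKO, or 71.3, 72.0 and 49.8 CPM against 170.2, 249 and 211 CPM. The genotypes did not overlap, and the means of 64.4 ± 12.6 and 210.2 ± 39.5 CPM differed by a log2 fold change of 1.71 ± 0.18 (SE, adjusted p = 1.26e-05). A second gene lies within it on the opposite strand, Gm13012, which had 12 counts over all libraries.

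The endothelin receptors were at the edge of detection. Ednra, the receptor that mediates contraction in smooth muscle (MGP_C57BL6NJ_G0034299, chromosome 8, 81256794 to 81330881, minus strand), had 0 counts in each Pdk4fl/fl library and 7, 4 and 9 in the Pdk4SMKO libraries, or 0.307, 0.199 and 0.441 CPM. Ednrb, which is best known in endothelium and in neural crest cells (MGP_C57BL6NJ_G0022037, chromosome 14, 104372554 to 104403009, minus strand), likewise had 0 counts in each Pdk4fl/fl library and 7, 5 and 10 in Pdk4SMKO, or 0.307, 0.249 and 0.490 CPM. A count of 0 allows up to 3 counts, which is 0.165 to 0.227 CPM in the Pdk4fl/fl libraries and covers counting error only. Ednra in Pdk4SMKO replicate 2, at 0.199 CPM, lies within that range, so it is not separated from every Pdk4fl/fl library once this limit is applied. Against the mean of that limit, Ednra was at least 1.60-fold and Ednrb at least 1.77-fold higher in Pdk4SMKO. Without Pdk4SMKO replicate 3 these bounds were 1.28-fold and 1.41-fold. This pattern of 0 counts in all Pdk4fl/fl and more than 3 in all Pdk4SMKO libraries was found in 515 of the 24025 genes, or 2.14%. When genes were not filtered on low counts, both passed the call (adjusted p = 0.00398 for Ednra and 0.0025 for Ednrb), as did 23.7% of all genes in that direction. Neither gene passed the filter of the fit, so neither is called. Per kilobase of gene length, Ednra made up 39.8% ± 2.67 (SD, n = 3) of the endothelin receptor reads in Pdk4SMKO, on 20 and 22 counts in all for Ednra and Ednrb.

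Of the other genes of the endothelin list, Mme, which encodes neprilysin, an enzyme that degrades endothelin, was the only one called. It had 0 counts in every Pdk4fl/fl library and 196, 54 and 52 in Pdk4SMKO, at least 23.4-fold higher, and the bound was 13.3-fold without Pdk4SMKO replicate 1. Like Avpr1a, it passed the filter on low counts only through the Pdk4SMKO libraries, so its call gives no more than these counts. Ece2, a relative of Ece1, had 233, 335 and 222 counts against 449, 402 and 416, with a log2 fold change of 0.24 that was not called (adjusted p = 0.137). The other endothelin ligand genes gave few reads, 3, 0 and 1 counts against 2, 0 and 6 for Edn2 and 0 in all libraries for Edn3. In all, 3 of the 8 genes of the endothelin list were called higher and 0 lower. The median log2 fold change was 1.99 over the 4 tested, Mme included. Of all tested genes, 32.8% were called higher and 26.5% lower.

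Avpr1a, the vasopressin receptor of vascular smooth muscle (MGP_C57BL6NJ_G0018183, chromosome 10, 130006452 to 130011406, plus strand), showed the widest gap between genotypes of the 9 genes. It had 0 counts in all 3 Pdk4fl/fl libraries and 213, 268 and 179 counts in Pdk4SMKO, or 9.34, 13.3 and 8.77 CPM. The Pdk4SMKO mean of 10.5 ± 2.48 CPM (SD, n = 3) was at least 53.2-fold above the limit set by 3 counts in the Pdk4fl/fl libraries, and this bound stayed between 45.9 and 57.5 when each Pdk4SMKO library was left out. The pattern is that of the 2.14% of genes named above.

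The rest of the vasopressin and oxytocin list was at low counts, except Lnpep. This gene, which encodes the aminopeptidase that degrades oxytocin and vasopressin, had means of 43.2 and 85.7 CPM and a log2 fold change of 0.99, just under the 2-fold limit (adjusted p = 5.21e-05). It was called higher under upper-quartile scaling (1.199), library size alone (1.59), no filter (1.04) and 10 counts in every library (1.09), and without replicate 1 of Pdk4fl/fl (1.06) or of Pdk4SMKO (1.07). Oxt, the oxytocin gene, had 6, 12 and 3 counts in Pdk4fl/fl and 0 in each Pdk4SMKO library, at least 3.0-fold lower against the limit, and was not tested. Avp was at 0 in all libraries, and Avpr1b, Avpr2 and Oxtr had no more than 4 counts in any library.

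Of the S1P receptors, S1pr1 and S1pr2 were called higher in Pdk4SMKO and S1pr3 was not called; whether their fold changes differ from each other was not tested. S1pr1 (MGP_C57BL6NJ_G0028219, chromosome 3, 121901891 to 121906530, minus strand), the Gi-coupled receptor best known in endothelium and lymphocytes, had 20, 20 and 17 counts in Pdk4fl/fl and 125, 124 and 147 in Pdk4SMKO. Its level was 1.33, 1.10 and 1.28 CPM against 5.48, 6.16 and 7.20 CPM, with no overlap. The means of 1.24 ± 0.124 and 6.28 ± 0.868 CPM (SD, n = 3 each) stood in a ratio of 5.07, a log2 fold change of 2.34 ± 0.27 (SE, adjusted p = 1.97e-05). Beside it, the endothelial marker sum was lower in Pdk4SMKO, the sums of the fibroblast, mesothelial, macrophage, pericyte and glial lists were higher, and the leukocyte gene Ptprc had 0, 1 and 0 counts against 33, 2 and 5.

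S1pr2 (MGP_C57BL6NJ_G0034923, chromosome 9, 18862929 to 18873678, minus strand), the receptor known for its link to RhoA and contraction, was the most abundant of the S1P receptors per kilobase in both genotypes. It had 362, 331 and 244 counts in Pdk4fl/fl and 1006, 905 and 779 in Pdk4SMKO, or 24.1, 18.2 and 18.4 CPM against 44.1, 45.0 and 38.2 CPM. The groups did not overlap, and the means were 20.2 ± 3.35 and 42.4 ± 3.70 CPM. Its log2 fold change of 1.07 ± 0.15 (SE, adjusted p = 0.000105) was the smallest of the 6 called and lay close to the 2-fold limit. Without Pdk4fl/fl replicate 3 it was 0.996 and the call was lost.

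S1pr3 (MGP_C57BL6NJ_G0020933, chromosome 13, 52174708 to 52188881, plus strand), which couples to Gi, Gq and RhoA, had 13, 6 and 6 counts in Pdk4fl/fl and 28, 24 and 10 in Pdk4SMKO. At 0.866, 0.329 and 0.454 CPM against 1.23, 1.19 and 0.490 CPM, the genotypes overlapped. The log2 fold change of 0.83 ± 0.52 (SE) was not called (adjusted p = 0.167), and its 95% interval of -0.34 to 2.00 includes no difference. With library size as the only scaling, the log2 fold change was 1.43 and passed the call.

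Within the 3 receptors, the balance by level per kilobase lay with S1pr2 in every library. S1pr1 made up 4.76%, 5.23% and 5.96% of their summed level in Pdk4fl/fl and 10.1%, 11.1% and 14.8% in Pdk4SMKO, means of 5.32% ± 0.608 and 12.0% ± 2.44 (SD, n = 3 each). The share of S1pr2 was 93.2% ± 0.547 in Pdk4fl/fl and 86.8% ± 1.96 in Pdk4SMKO. All Pdk4SMKO libraries lay above all Pdk4fl/fl libraries for the share of S1pr1 and below them for that of S1pr2 (exact two-sided permutation test, p = 0.1 each, the smallest that 3 against 3 libraries allow). The share of S1pr3 was 1.53% ± 0.525 and 1.23% ± 0.475, with libraries of both genotypes interleaved (p = 0.6 in the same exact permutation test).

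**Figure D3:**
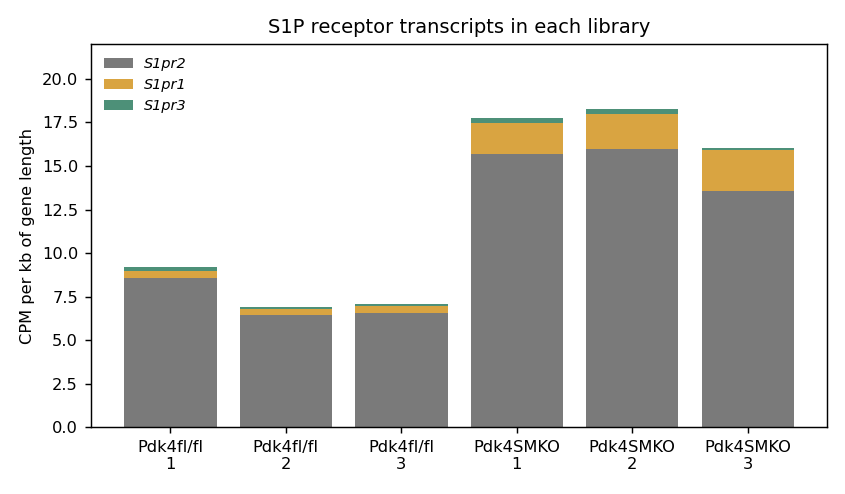
Level of S1pr2, S1pr1 and S1pr3 in CPM per kilobase of gene length, stacked from 0 in 1 bar for each of the 6 libraries. S1pr2 makes up most of every bar, and the part of S1pr1 is 4.76% to 5.96% of the bar in Pdk4fl/fl and 10.1% to 14.8% in Pdk4SMKO.

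Among the genes that make, carry and break down S1P, few passed the call. Plpp1, a lipid phosphate phosphatase of the cell surface, was the only one called, with means of 13.2 and 57.3 CPM and a log2 fold change of 2.12 ± 0.16 (SE, adjusted p = 1.08e-06). Sphk1, which makes S1P, had a log2 fold change of 0.69 that fell short of 2-fold (adjusted p = 0.0107), and that of its relative Sphk2 was 0.08 (adjusted p = 0.699). Sgpl1, the lyase that degrades S1P, averaged 231 CPM in Pdk4fl/fl and 147.6 CPM in Pdk4SMKO, a log2 fold change of -0.65 that also fell short of 2-fold (adjusted p = 0.00027). The exporters were not called, with log2 fold changes of 0.71 for Spns2 (adjusted p = 0.194) and -1.07 for Mfsd2b (adjusted p = 0.0603). Neither was settled, since Spns2 was called higher without Pdk4fl/fl replicate 1 (1.46) and with library size alone (1.30), and Mfsd2b was called lower with DESeq2 (-1.10), without the filter (-1.02) and without Pdk4fl/fl replicate 3 (-1.47). The phosphatases Plpp2, Sgpp1 and Plpp3 had log2 fold changes of 0.16, 0.26 and 0.34 and were not called. Of the 15 genes of the S1P list, 12 were tested, 3 were called higher, 0 lower, and 9 were not called. Their median log2 fold change was 0.52. Of all tested genes, 32.8% were called higher and 26.5% lower. S1pr5, with 1, 4 and 4 counts against 47, 15 and 6, was not tested, S1pr4 had 1 count in all, and Sgpp2 had 0 counts in Pdk4fl/fl and 6, 0 and 2 in Pdk4SMKO.

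Adora2b, the A2B adenosine receptor, which couples to Gs (MGP_C57BL6NJ_G0018842, chromosome 11, 64231556 to 64252267, plus strand), was higher in Pdk4SMKO cells. It had 31, 33 and 10 counts in Pdk4fl/fl and 204, 167 and 176 in Pdk4SMKO. Its level was 2.07, 1.81 and 0.756 CPM against 8.94, 8.30 and 8.62 CPM, so the Pdk4fl/fl libraries varied more than the Pdk4SMKO libraries and none overlapped. The means of 1.54 ± 0.694 and 8.62 ± 0.321 CPM (SD, n = 3 each) gave a log2 fold change of 2.46 ± 0.32 (SE, adjusted p = 5.04e-05). Without Pdk4fl/fl replicate 3, the lowest library, the log2 fold change was 2.14.

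The genes that produce and clear adenosine moved in both directions. Nt5e, the ectonucleotidase CD73 that forms adenosine from AMP, had 11, 13 and 5 counts in Pdk4fl/fl and 229, 161 and 142 in Pdk4SMKO. Its means were 0.608 and 8.33 CPM, and its fitted log2 fold change was 3.74 ± 0.32 (SE). Nt5e was tested only because its counts were high enough in all 3 Pdk4SMKO libraries, so its call gives no more than these counts. Entpd1, the ectonucleotidase CD39 that acts before it, rose less, with a log2 fold change of 1.08 (adjusted p = 0.000243) that fell to 0.92 without Pdk4fl/fl replicate 3 and to 0.98 without Pdk4SMKO replicate 1, where its call was lost. Ada, which deaminates adenosine, had means of 17.7 and 4.00 CPM and a log2 fold change of -2.14 (adjusted p = 2.86e-06). Both equilibrative nucleoside transporters were called lower. Slc29a2 had 1464, 1244 and 392 counts against 45, 48 and 38, a log2 fold change of -4.97 (adjusted p = 1.99e-06), and that of Slc29a1 was -1.09 (adjusted p = 0.000142), with the call lost without Pdk4SMKO replicate 1 (-0.91) and under other scalings. Adk, the adenosine kinase, had a log2 fold change of -0.23 and was not called (adjusted p = 0.125), and its sign turned when library size was the only scaling. Of the other adenosine receptors, Adora2a had a log2 fold change of 0.61 and was not called (adjusted p = 0.348) but was called at 1.56 without Pdk4fl/fl replicate 1, Adora1 had 0 counts against 3, 1 and 3, and Adora3 was at 0. In all, 8 of the 10 genes of the adenosine list were tested, 3 were called lower and 3 higher, Nt5e included. Their median log2 fold change was 0.19. Of all tested genes, 32.8% were called higher and 26.5% lower.

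The adrenergic list held receptors for noradrenaline and adrenaline and enzymes that degrade them. Of the 10 genes reported, 7 were tested, 5 were called higher and 2 lower, beside 32.8% and 26.5% of all tested genes. The median log2 fold change of 2.55 is the value of Adrb1. Like Adrb3, Maob, Adra1d and Adra2a, Adrb1 passed the filter on low counts only through the genotype where it is high. Adra1d, a Gq-coupled receptor known for contraction of the aorta, had 8, 12 and 17 counts in Pdk4fl/fl and 252, 194 and 150 in Pdk4SMKO. Its fitted log2 fold change was 3.52. Adra1b, of the same class, had 43, 40 and 23 counts against 198, 159 and 122, a log2 fold change of 1.73 ± 0.27 (SE, adjusted p = 0.000204). The Gi-coupled Adra2a went the other way, with 173, 242 and 128 counts against 12, 6 and 7 and a log2 fold change of -4.85. Adra1d passed the filter on low counts only through its Pdk4SMKO libraries, and Adra2a only through its Pdk4fl/fl libraries. The calls of Adra1d and Adra2a give no more than these counts. The genotypes did not overlap for Adra1d, Adra1b or Adra2a. Of all tested genes, 43.5% had every Pdk4SMKO library above every Pdk4fl/fl library and 38.3% had every one below.

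The Gs-coupled receptors Adrb1 and Adrb3 were called higher at low levels, with log2 fold changes of 2.55 and 3.33. Adrb1 had 3, 2 and 5 counts in Pdk4fl/fl and 38, 24 and 22 in Pdk4SMKO. Adrb3 had 5, 2 and 0 counts against 42, 33 and 25, and its log2 fold change was 4.50 without Pdk4fl/fl replicate 1. Of the monoamine oxidases, Maob had 0, 5 and 5 counts against 292, 233 and 260, a log2 fold change of 5.80. Maoa fell from a mean of 375 to 162 CPM, with its call lost under other scalings. Adrb1, Adrb3 and Maob had at most 5 counts in any Pdk4fl/fl library and passed the filter on low counts only through their Pdk4SMKO libraries. Their calls, which are among the 5 called higher in this list, give no more than these counts. Adra1a, Adra2b and Adra2c had at most 2 counts in a library.

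**Figure D4:**
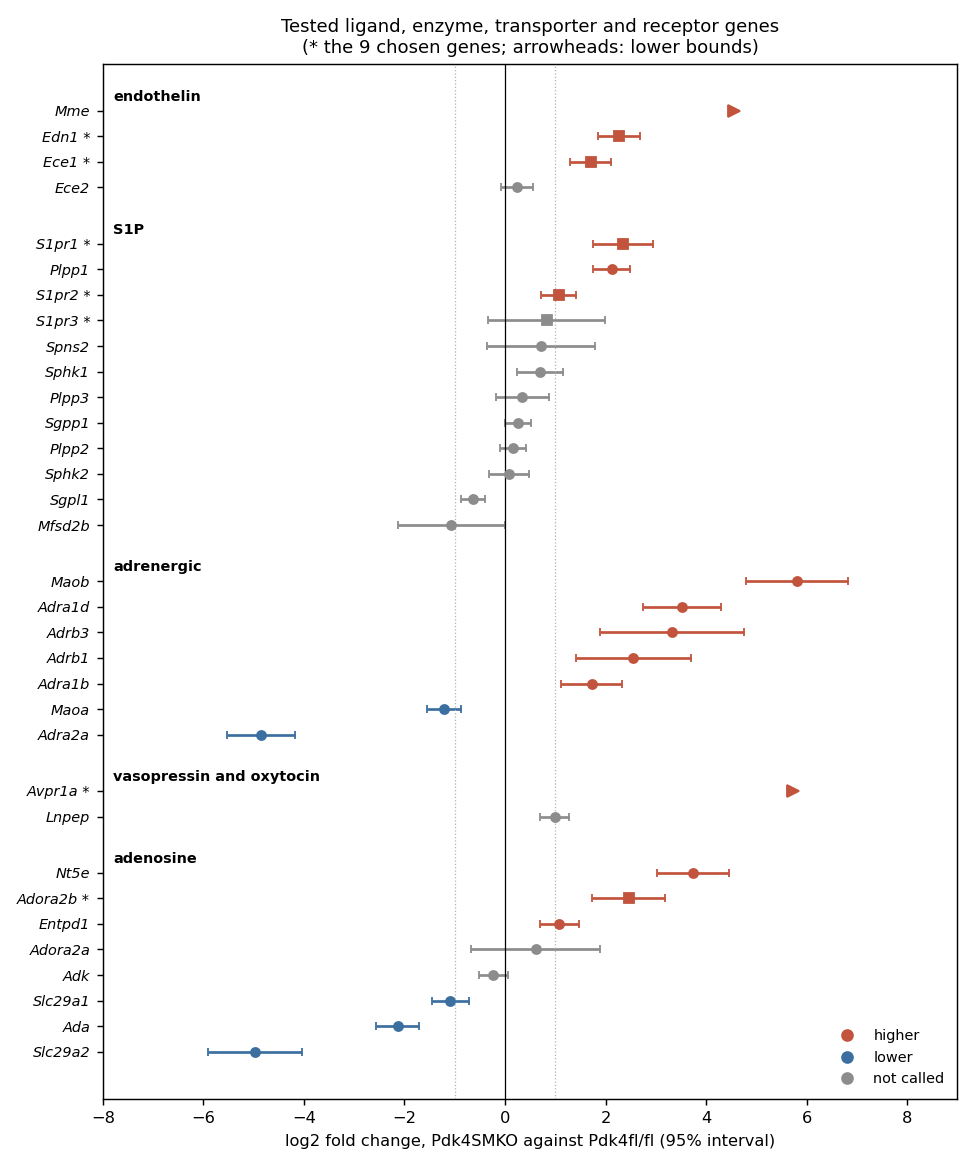
Log2 fold change of Pdk4SMKO against Pdk4fl/fl with its 95% interval for the tested genes of the endothelin, S1P, adrenergic, vasopressin and adenosine lists; stars mark the chosen genes, arrowheads the lower bounds of Mme and Avpr1a, and dotted lines a 2-fold difference. The 6 chosen genes called higher lie right of the 2-fold line, the interval of S1pr3 runs from -0.34 to 2.00, and Adra2a (-4.85) and Slc29a2 (-4.97) lie farthest to the left.

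The order of the 9 genes by level per kilobase of gene length was much alike in both genotypes. In Pdk4fl/fl it was Ece1 (12.0 ± 2.34 CPM per kilobase, SD, n = 3), S1pr2 (7.19 ± 1.19), Edn1 (2.90 ± 0.515), Adora2b (0.837 ± 0.376), S1pr1 (0.407 ± 0.0408) and S1pr3 (0.123 ± 0.0627), followed by the genes without a count. The libraries of Adora2b and S1pr1 overlapped there. In Pdk4SMKO it was Ece1 (39.1 ± 7.34 CPM per kilobase), S1pr2 (15.1 ± 1.32), Edn1 (14.0 ± 1.94), Adora2b (4.67 ± 0.174), Avpr1a (3.92 ± 0.928), S1pr1 (2.06 ± 0.285), S1pr3 (0.216 ± 0.0928), Ednrb (0.0863 ± 0.0312) and Ednra (0.0576 ± 0.0222). Here the libraries of S1pr2 and Edn1 overlapped, as did those of Adora2b and Avpr1a and those of Ednrb with both S1pr3 and Ednra, while S1pr3 and Ednra did not overlap. By percentile of level per kilobase among all tested genes, Edn1 stood at 42.8 in Pdk4fl/fl and 75.1 in Pdk4SMKO, and Ece1 at 68.6 and 91.7.

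The genes whose pattern over the 6 libraries was nearest to each member were picked by the distance between log2 CPM values centred on their means. For S1pr1 these were Lats1 (distance 0.104) and Cdc23 (0.145), and for S1pr2 Cped1 (0.116) and Atg16l1 (0.142). They were Myo10 (0.171) and Gpr63 (0.188) for Ece1, Slc39a10 (0.176) and Dpy19l1 (0.204) for Edn1, and Cpeb2 (0.244) and Pyroxd1 (0.252) for Adora2b. For Avpr1a they were Adam23 (0.229) and Zbtb4 (0.301), and for S1pr3 Mast1 (0.217) and Ptger4 (0.433). With only 2 groups in 6 libraries, the measure is mainly one of the difference between the genotypes, and the 0.5 CPM added before taking logs brings low genes with unequal fold changes close, such as Gpr63 (log2 fold change 3.49) to Ece1 (1.71).

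The genes that act behind these receptors are given by their counts of calls, beside the 32.8% of all tested genes called higher and the 26.5% called lower; no list was tested against that share. Of 10 genes for G protein alpha subunits, 8 were tested, 3 were called higher and 2 lower, with a median log2 fold change of 0.14. Gna11, a subunit of the Gq family, rose from a mean of 25.3 to 119.7 CPM (log2 fold change 2.24, adjusted p = 1.58e-07), and Gnai1, an inhibitory subunit, had a log2 fold change of 1.33. Gna13, which links receptors to RhoA, fell from 206 to 79.4 CPM (log2 fold change -1.38, adjusted p = 4.43e-06). Gnas, the stimulatory subunit, had a log2 fold change of -1.23 (adjusted p = 0.00335), which was -0.75 without Pdk4fl/fl replicate 3, where the call was lost. The calls of Gna13 and Gnas were also lost when library size was the only scaling.

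Among 14 effectors of Gq, 10 were tested, 3 were called higher and 1 lower, and the median log2 fold change was 0.43. The largest differences were in the protein kinase C genes Prkce (log2 fold change 1.83) and Prkcd (-1.68) and in Itpr1, a calcium release channel (1.80). In the RhoA arm, 10 of 11 genes were tested and 2 were called, both higher, with a median log2 fold change of 0.02. They were Mylk, the myosin light chain kinase (log2 fold change 1.97), and Rock2, a kinase activated by RhoA, which rose from 86.2 to 336 CPM. In the adenylyl cyclase arm, 16 of 18 genes were tested, 9 were called higher and 3 lower, and the median log2 fold change was 1.27. The cyclases Adcy9 (log2 fold change 3.69) and Adcy7 (3.58) rose most of those tested, and Prkar2b, a regulatory subunit of protein kinase A, fell by 1.92 on the log2 scale. Pde4d, a phosphodiesterase that degrades cAMP, had a log2 fold change of -1.31, with its call lost when library size was the only scaling. Adcy2, which was not tested and is named after its values were seen, had 0 counts in Pdk4fl/fl and 21, 19 and 7 in Pdk4SMKO.

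Regulators that shorten or dampen receptor signalling differed by large amounts in both directions. Of the 11 tested, 6 were called higher and 4 lower, with a median log2 fold change of 1.03. Rgs4, which speeds the switching off of Gq and Gi, had 407, 471 and 391 counts in Pdk4fl/fl and 3, 4 and 1 in Pdk4SMKO. Its fitted log2 fold change was -7.69. Grk3, a receptor kinase, had 153, 141 and 81 counts against 2, 0 and 1. Both passed the filter on low counts only through their Pdk4fl/fl libraries, so their calls give no more than these counts. Rgs2, a regulator of Gq in smooth muscle, went up, with a log2 fold change of 2.36, as did Rgs16 (1.62). The genotypes did not overlap for these 4 genes. Of all tested genes, 43.5% had every Pdk4SMKO library above every Pdk4fl/fl library and 38.3% had every one below.

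**Figure D5:**
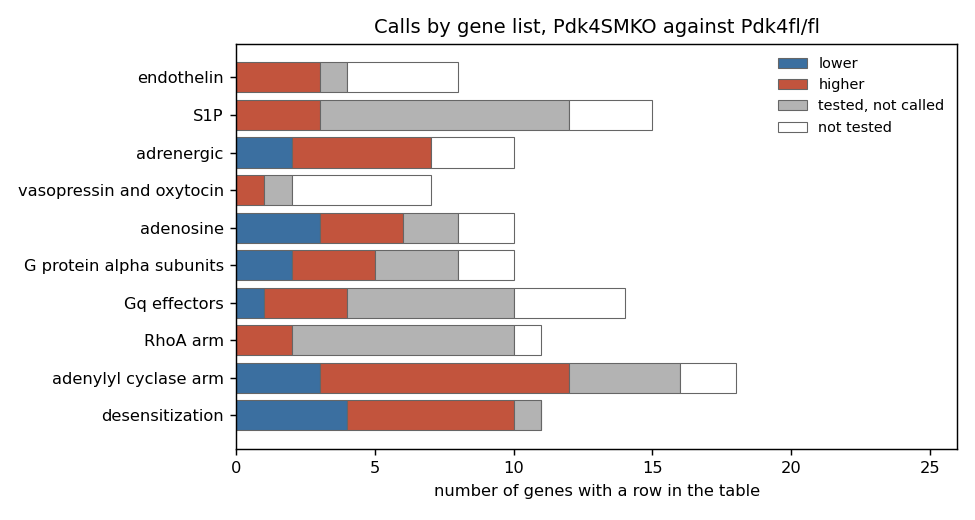
Number of genes called lower, called higher, tested but not called, and not tested in each of the 10 pathway lists, as stacked bars from 0. Calls in both directions occur in the adrenergic, adenosine, G protein alpha subunit, Gq effector, adenylyl cyclase and desensitization lists, while the endothelin, S1P, vasopressin and RhoA lists hold no gene called lower.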

How the data were processed

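RNA-seq read counts per gene were analysed for 6 libraries of Ang II-treated MASMCs, 3 per genotype. The authors deposited raw counts, not normalized, in 1 table, with each gene's name, length and position. The submitters' processing notes name build GRCm39, while the gene identifiers are those of the C57BL/6NJ strain annotation (625 rows have other identifiers). The aligner, counter and strand setting are not given in the sources used here, and the library kit is named differently in the labels and the methods of the study.

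Counts were fitted with edgeR 4.0.16 in R 4.3.3 (TMM scaling, filterByExpr, quasi-likelihood test, genotype as the only term, Benjamini-Hochberg adjustment over 14085 genes), with DESeq2 1.42.0 as an alternative. Calls required both a 2-fold change and an adjusted p below 0.05. CPM used the TMM-scaled library sizes, and levels were compared between genes per kilobase of the deposited gene length. A gene at 0 in a genotype is given as a bound against 3 counts per library. Shares among receptors were compared with an exact permutation test over libraries; for Ednra and Ednrb no test was possible, since both had 0 counts in every Pdk4fl/fl library. Nearest patterns used log2(CPM + 0.5). The fit was tested on simulated data in which 200 genes were changed, in both directions. That is far fewer than the 59.3% of tested genes called here, so the simulation does not test the scaling under so wide a difference.

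The genes and gene lists were chosen with earlier results of these data known. The genes named are the 9 chosen genes, Pdk4, Xist, the ligand, enzyme, transporter and receptor genes of the endothelin, adrenergic, S1P, vasopressin and oxytocin, and adenosine lists, the 2 genes called lower and the 2 called higher with the largest change in each other list, and the 2 nearest patterns of each fitted gene; marker genes were named for the check of cell types, and Gm13012 for its overlap with Ece1. Some genes of the adrenergic list are not reported here and were left out of its counts. Rgs3 had no row by that name, and Grk2 and Grk3 were found under older symbols. Alternatives were other scalings, filters and tools, a replicate block and leaving out each library.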

Additional observations from a re-analysis of the deposited data

How the results depend on the processing

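The count of 6 chosen genes called higher and 0 lower was the same with relative log expression or upper-quartile scaling, with DESeq2 and with no limit on the fold change. It was 7 with library size alone (S1pr3 added), 8 without the filter (Ednra and Ednrb added), 5 when 10 counts in every library were required, and 5 to 6 when each library was left out, S1pr2 being lost without Pdk4fl/fl replicate 3. Across the settings that tested them, the log2 fold changes ran from 2.13 to 2.87 for Edn1, 1.54 to 2.30 for Ece1, 2.24 to 2.95 for S1pr1, 0.996 to 1.67 for S1pr2, 0.55 to 1.43 for S1pr3 and 2.14 to 3.05 for Adora2b. The median of all genes moved by 0.21 with upper-quartile scaling and by 0.61 with library size alone. With library size alone, 2390 genes were called lower and 6184 higher, so the lower share of calls was 27.9% in place of 44.7%, and Adk reversed to a log2 fold change of 0.38. Sphk2 ran from -0.030 to 0.24 when each library was left out, reversing without Pdk4SMKO replicate 2. The share of Ednra was 47.3% when counts were not divided by length. Whether the replicate numbers mark pairs could not be decided from 3 libraries per genotype. Same-numbered libraries had correlations of deviations of 0.0477, 0.0948 and 0.234, and 4 of the 6 libraries correlated best with their own number. With a replicate block, 3704 genes were called lower, 4577 higher, and 6 of the chosen genes higher. Depth limits Ednra, Ednrb and S1pr3, which had at most 28 counts in a library. The cause of these shifts was not tested.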
